A study of Mus musculus with 6 samples.

Results

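The genes that encode the proteasome, its activators and its assembly factors were examined in testes of WT and Trf2-/- mice. Members were all genes annotated as protein coding whose symbol begins with Psma to Psmg and a digit, leaving out the inducible core subunits Psmb8, Psmb9 and Psmb10, which gave 47 of the 26743 genes of the count table. They comprise 8 alpha and 8 beta subunits of the 20S core, 6 ATPases and 11 non-ATPase subunits of the 19S particle, 5 activator genes, 7 assembly factors and the inhibitor Psmf1. The remaining member, Psmc3ip, shares the name but encodes a cofactor of meiotic recombination and no proteasome part. RNA was sequenced from whole testes of 3 WT males and 3 Trf2-/- males, all at 21 days of age. Trf2, listed under its symbol Tbpl1, is a relative of the TATA-box binding protein, and its loss in the Trf2-/- mice is not restricted to a cell type. At this age the first round spermatids have appeared in the first wave of spermatogenesis, so a level measured in whole testis is an average over somatic cells, spermatogonia, spermatocytes and early spermatids. The purpose of the comparison was to learn which RNAs depend on Trf2.

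The proteasome degrades proteins that carry chains of ubiquitin. Its 20S core is a barrel of stacked rings, with alpha subunits forming the gates and beta subunits lining the chamber, where Psmb5, Psmb6 and Psmb7 cut the substrate. The 19S particle caps the core, binds ubiquitin chains, removes them and feeds the unfolded protein inwards with its ring of ATPases. Other caps, encoded by Psme1, Psme2, Psme3 and Psme4, open the core without ATP. Male germ cells build a variant, in which the alpha subunit Psma8 takes the place of Psma7 from meiosis onwards, and they use Psme4 (PA200) to degrade acetylated histones.

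The WT libraries held 21582123 to 29859347 counts and the Trf2-/- libraries 15187062 to 24530489, with mutant mouse 3 the shallowest. Levels are given as CPM, counts scaled to the library size with TMM factors, and p-values come from edgeR's quasi-likelihood test, adjusted over 16924 genes by the method of Benjamini and Hochberg. Tbpl1 stood at 308, 283 and 293 CPM in WT mice 1 to 3 and at 62.9, 64.3 and 55.7 CPM in Trf2-/- mice 1 to 3, so each library matched its label, although reads on the gene remained. Markers of late germ cells were also lower in the mutants. All 8 listed markers of pachytene spermatocytes were down-regulated (summed level 5536 to 5996 CPM in WT, 3561 to 4434 CPM in Trf2-/-), as were 7 of 8 of round spermatids (74.6 to 77.8 CPM against 31.3 to 46.6 CPM). With library size alone in place of TMM, 5 and 7 of these markers were down-regulated. Of 5 measured markers of elongating spermatids, the 2 that could be tested were down-regulated, and the protamine genes Prm2 and Prm3 were at or near 0 in both genotypes. In contrast, none of the listed markers of spermatogonia, early spermatocytes, Sertoli, Leydig or peritubular cells or macrophages was down-regulated. In these lists 1 of 8, 3 of 6, 2 of 6, 1 of 6, 1 of 5 and 3 of 7 were up-regulated, beside 11.2% of all genes tested. With library size alone 3, 4, 5, 1, 3 and 6 were up-regulated. In that fit 6958 of all 16924 genes tested were called, 2691 of them lower. In whole testis, fewer cells of a type and less RNA per cell cannot be told apart, and the part of the late germ cell markers in the results that follow was not tested.

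In Trf2-/- testes the proteasome genes changed little, and with TMM scaling most of those that changed were lower. Of the 45 members with enough counts to test, 13 were down-regulated and 2 up-regulated at an adjusted p under 0.05, which is 28.9% and 4.44% of them. Among all genes tested, 20.2% were down-regulated and 11.2% up-regulated. With TMM scaling 86.7% of the members' calls were decreases. This split rests on the scaling, because with library size alone 5 members were lower and 7 higher, and the share of decreases was 41.7% (64.4% of all called genes with TMM, 38.7% with library size alone). In the fit with library size alone, 6958 of all 16924 genes tested were called, 2691 of them lower. The median log2 fold change of the members was -0.06, beside 0.04 for all genes tested, and with library size alone it turned to 0.04, beside 0.13 for all genes. The fitted changes ran from -0.53 to 0.17 on the log2 scale, and 40 of the 45 lay within 0.25 of 0, compared with 57.7% of all genes. No member changed by 2-fold in edgeR's test or in that of DESeq2, although 18 had an unadjusted p under 0.05, and 4.90% of all genes passed both limits. These comparisons with all genes were not matched for level. Tested members had at least 6.62 CPM per kb of gene length in WT, and the genes tested reach lower, as the marker Catsper3 at 0.431.

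With TMM scaling, the values of the 3 mutants lay entirely below those of the 3 WT mice for 21 members and entirely above for 6. Together these were 60.0% of the members against 49.2% of all genes. The split into below and above was made neither over all genes nor with library size alone. Its dependence on the scaling, on which the split of the calls rests, was not tested. The members' counts together made up 0.581% to 0.583% of all counts in WT mice and 0.559%, 0.576% and 0.553% in Trf2-/- mice 1 to 3, a share that involves no TMM factor. The mutants were not alike. Among the 13 down-regulated members, Trf2-/- mouse 3 had the lowest value of the mutants in 11 and mouse 2 in the other 2. The median of these 13 was -0.22, -0.20 and -0.32 on the log2 scale in Trf2-/- mice 1 to 3, relative to the WT mean. Mouse 3 also had the lowest sums of the pachytene and round spermatid markers, but 12 of the 13 decreases remained without it, and only that of Psmg2 was lost. Without mouse 3 the log2 fold change was -0.44 for Psmc3 and -0.35 for Psme4, beside -0.53 and -0.42 with it.

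**Figure D1:**
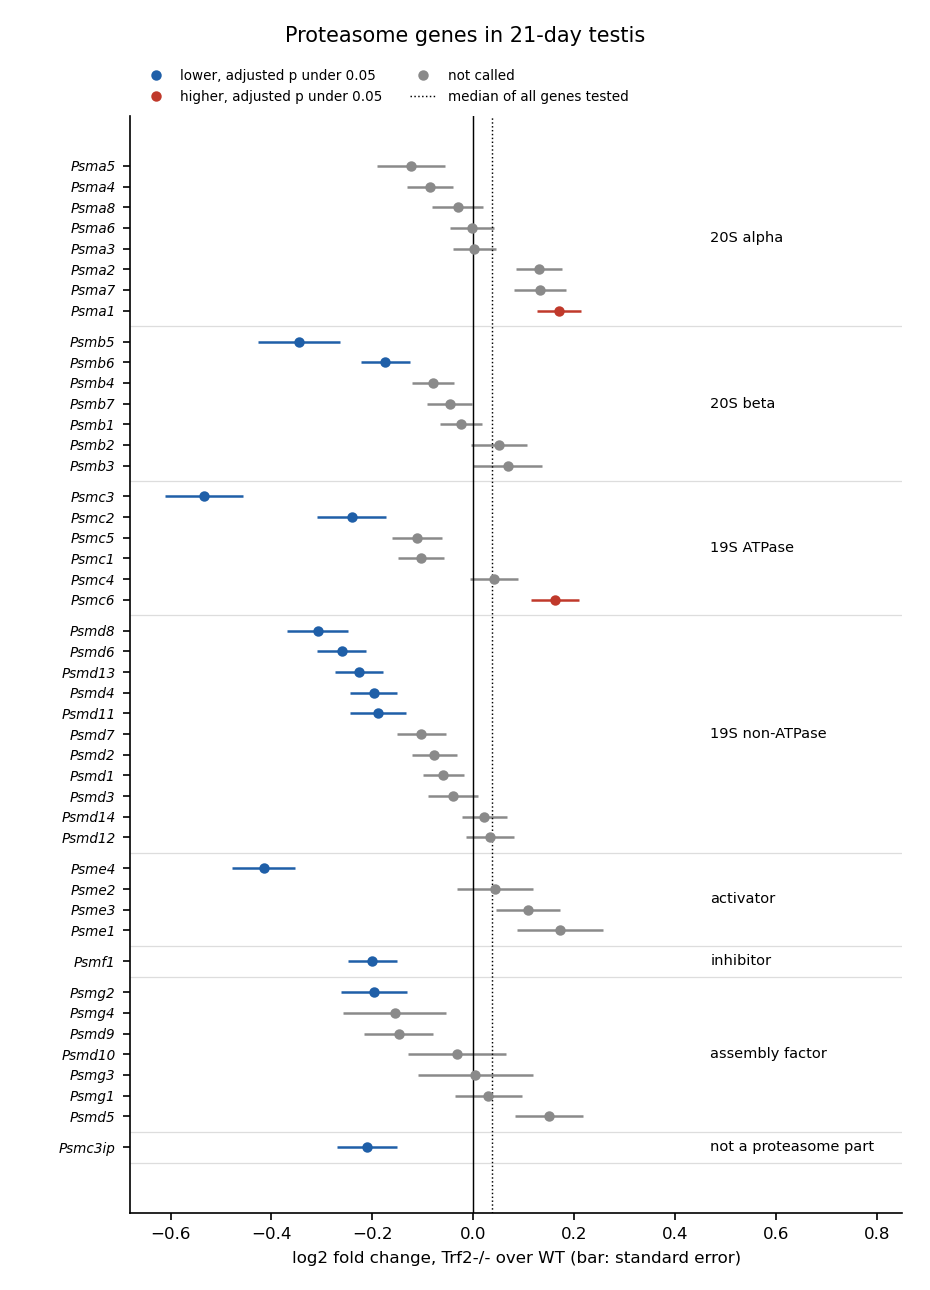
Log2 fold change (horizontal axis, Trf2-/- over WT) of each of the 45 tested members, grouped by role, with bars for the standard error and a dotted line at the median of all genes tested. The 13 down-regulated members are blue and lie between -0.53 and -0.17, the 2 up-regulated members are red, and most of the points stand within 0.25 of 0.

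The 19S particle and the 20S core differed in how many of their genes were called, and that difference was not tested. Of the 17 members that encode 19S subunits, 7 were lower (41.2%) and 1 higher (5.88%), with a median log2 fold change of -0.10. Among all genes tested these shares were 20.2% and 11.2%. With library size alone 3 of the 17 were lower and 1 higher. In that fit 6958 of all 16924 genes tested were called, 2691 of them lower. The 19S subunits Adrm1 and Shfm1 lack a Psm name and were counted with the pathway genes below. Neither was called (0.02, edgeR adjusted p = 0.875, and -0.13, edgeR adjusted p = 0.0535). In the 20S core 2 of 15 tested subunits were lower (13.3%) and 1 higher (6.67%), with a median of -0.02 (1 lower and 3 higher with library size alone). The summed counts of the 19S genes were 0.313%, 0.315% and 0.314% of all counts in WT mice 1 to 3 and 0.294%, 0.308% and 0.290% in Trf2-/- mice 1 to 3. Those of the 20S genes were 0.155%, 0.159% and 0.156% in WT and 0.164%, 0.165% and 0.165% in the mutants. Of all counts, each mutant thus gave less to the 19S genes and more to the 20S genes than each WT mouse, whereas after TMM scaling both sums were lower in each mutant. The ratio of 19S to 20S counts, which no scaling affects and which was computed after the data had been seen, was 2.02, 1.99 and 2.01 in WT and 1.79, 1.86 and 1.76 in the mutants. Psmc3 carried a large part of this. Without it the ratio was 1.68, 1.66 and 1.68 in WT and 1.55, 1.60 and 1.55 in the mutants, still with no overlap. The ratio is a description of the sums and was given no test.

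The largest decrease was that of Psmc3, an ATPase of the 19S ring (chromosome 2, 90894166 to 90906526, NCBIM37). It stood at 544, 532 and 537 CPM in WT mice 1 to 3 and at 375, 413 and 325 CPM in Trf2-/- mice 1 to 3. The mutant values were more widely spread than the WT values, and all lay far below them. The mean fell by 31.0%, a log2 fold change of -0.53 (SE 0.08, edgeR adjusted p = 0.00136). Psmc3 shares 215 of its 2607 exon bases with Slc39a13 on the opposite strand, which was not called (log2 fold change 0.09, edgeR adjusted p = 0.352). Psmc2, another ATPase, measured 183, 188 and 195 CPM in WT and 166, 171 and 142 CPM in Trf2-/- testes (-0.24, SE 0.07, edgeR adjusted p = 0.0269). Its lowest value was again in mutant mouse 3, and its call was lost with library size alone (edgeR adjusted p = 0.0999). Psmc6, in contrast, was higher in the mutants, with 125, 122 and 117 CPM in WT and 133, 133 and 141 CPM in Trf2-/- mice. The groups did not overlap, and the change was small (0.16, SE 0.05, edgeR adjusted p = 0.0315). The ATPases Psmc1, Psmc4 and Psmc5 were not called, with log2 fold changes of -0.10, 0.04 and -0.11. The ATPases, which sit in equal number in one ring, thus ranged from -0.53 to 0.16.

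Among the members that encode non-ATPase subunits, 5 of 11 were down-regulated (45.5%, beside 20.2% of all genes tested) and none was up-regulated. With library size alone 2 of the 11 were down-regulated, beside 2691 of all 16924 genes tested. Psmd8, a lid subunit (chromosome 7, 29959207 to 29965692, NCBIM37), had 269, 274 and 265 CPM in WT and 219, 234 and 199 CPM in Trf2-/- mice. The mean fell by 19.3% (log2 fold change -0.31, SE 0.06, edgeR adjusted p = 0.0054). Psmd6, another lid subunit (chromosome 14, 14944698 to 14953498), had 146, 144 and 139 CPM in WT and 122, 123 and 113 CPM in mutants (-0.26, SE 0.05, edgeR adjusted p = 0.00448). Both genes were lowest in mutant mouse 3, and neither overlapped between genotypes. Psmd4, one of the receptors for ubiquitin chains, measured 193, 192 and 194 CPM in WT and 166, 177 and 162 CPM in mutants (-0.20, edgeR adjusted p = 0.012). Psmd11, a lid subunit, measured 80.1, 79.3 and 88.1 CPM in WT and 72.3, 71.7 and 73.1 CPM in mutants (-0.19, edgeR adjusted p = 0.0304). In both the mutants lay below WT, close together for Psmd11 (SD 0.715 CPM) and more widely spread for Psmd4 (SD 7.56 CPM). Psmd13, also of the lid, changed by -0.23 on the log2 scale (edgeR adjusted p = 0.00744). It shares 152 exon bases with Sirt3 on the opposite strand, which was not called (log2 fold change -0.20, edgeR adjusted p = 0.140). With library size alone Psmd8 and Psmd6 kept their calls, while Psmd4, Psmd11 and Psmd13 lost theirs (edgeR adjusted p = 0.095, 0.204 and 0.0507). The other 6 were not called and ranged from -0.10 (Psmd7) to 0.03 (Psmd12). They include the deubiquitinase Psmd14 (0.02), and Psmd1 and Psmd2 (-0.06 and -0.08), the large scaffold subunits of the base. Psmd1 shares 405 exon bases with Armc9 on the same strand, which was down-regulated (-0.23, edgeR adjusted p = 0.00984).

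In the alpha ring of the core no gene was down-regulated. Psma8, the germ cell subunit, had 276, 286 and 279 CPM in WT mice 1 to 3 and 292, 268 and 263 CPM in Trf2-/- mice 1 to 3. The mutant values fell on both sides of the WT values, and no difference was detected (log2 fold change -0.03, SE 0.05, edgeR adjusted p = 0.669). Its sign turns with library size alone (0.06) and without Trf2-/- mouse 3 (0.00405). Psma7, the subunit whose place Psma8 takes, had 71.1, 74.2 and 75.3 CPM in WT and 77.2, 81.6 and 82.9 CPM in mutants. The genotypes did not overlap, but the difference did not pass (0.13, SE 0.05, edgeR adjusted p = 0.0832). The number of Psma8 reads for each Psma7 read, which no scaling affects, was 3.88, 3.86 and 3.70 in WT and 3.78, 3.28 and 3.18 in Trf2-/- mice. Per gene length the ratio in mice 1 and 2 was 2.20 and 2.19 in WT and 2.14 and 1.86 in mutants, the third mouse having the lowest ratio in both genotypes, and Psma8 RNA outnumbered Psma7 RNA in every testis. The log2 count ratio differed by -0.16 between genotypes (exact two-sided permutation test, p = 0.2, where the smallest p that 3 against 3 mice allows is 0.1), and mutant mouse 1 lay within the WT range. Psma1 was the only up-regulated gene of the ring (Psma2 and Psma7 joined it with library size alone), with 83.9, 84.4 and 82.6 CPM in WT and 94.1, 93.1 and 95.0 CPM in mutants. Replicates of each genotype were close together (0.17, SE 0.04, edgeR adjusted p = 0.0183). Psma2 was also higher in each mutant than in each WT mouse (0.13, edgeR adjusted p = 0.0581), while Psma3, Psma4, Psma5 and Psma6 had log2 fold changes from -0.12 to 0.00242 and were not called.

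In the beta rings 2 of 7 tested subunits were down-regulated (28.6%, beside 20.2% of all genes tested), and 1 with library size alone. Both are catalytic. Psmb5, which carries the chymotrypsin-like activity (chromosome 14, 55232644 to 55236851, NCBIM37), had 20.4, 21.9 and 21.3 CPM in WT and 16.2, 18.1 and 15.7 CPM in mutants. Its mean fell by 21.5% (log2 fold change -0.35, SE 0.08, edgeR adjusted p = 0.0126), and 109 of its exon bases lie in the microRNA gene Mir686 of the same strand. Psmb6, with the caspase-like activity, had 165, 162 and 164 CPM in WT and 144, 153 and 138 CPM in mutants (-0.17, SE 0.05, edgeR adjusted p = 0.025). Neither gene overlapped between genotypes, and with library size alone the call of Psmb6 was lost (edgeR adjusted p = 0.195). Psmb7, the trypsin-like subunit, was not called (-0.05), and the non-catalytic subunits Psmb1, Psmb2, Psmb3 and Psmb4 ranged from -0.08 to 0.07. Psmb11, the beta subunit of thymus epithelium, was too low to test, with 1, 4 and 3 counts in WT and 6, 8 and 1 counts in mutants.

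Of the activators, only Psme4 was called, as down-regulated, and with library size alone Psme1 and Psme3 were called as higher. This gene (chromosome 11, 30671726 to 30780361, NCBIM37) had 669, 607 and 641 CPM in WT mice 1 to 3 and 494, 503 and 438 CPM in Trf2-/- mice 1 to 3. All mutants lay below the lowest WT mouse, and mouse 3 was again the lowest. The mean fell by 25.1% (log2 fold change -0.42, SE 0.06, edgeR adjusted p = 0.00164). In contrast, Psme3, whose product is a nuclear cap, had 89.1, 87.5 and 85.6 CPM in WT and 90.3, 89.2 and 104 CPM in mutants, which do not overlap by a narrow margin (0.11, edgeR adjusted p = 0.224). Psme1 and Psme2, which form the cap induced by interferon, had log2 fold changes of 0.17 and 0.04 and were not called. Psme2b-ps, annotated as protein coding despite the pseudogene suffix of its name, had 4, 1 and 2 counts in WT and 2, 1 and 0 counts in mutants and was not tested.

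**Figure D2:**
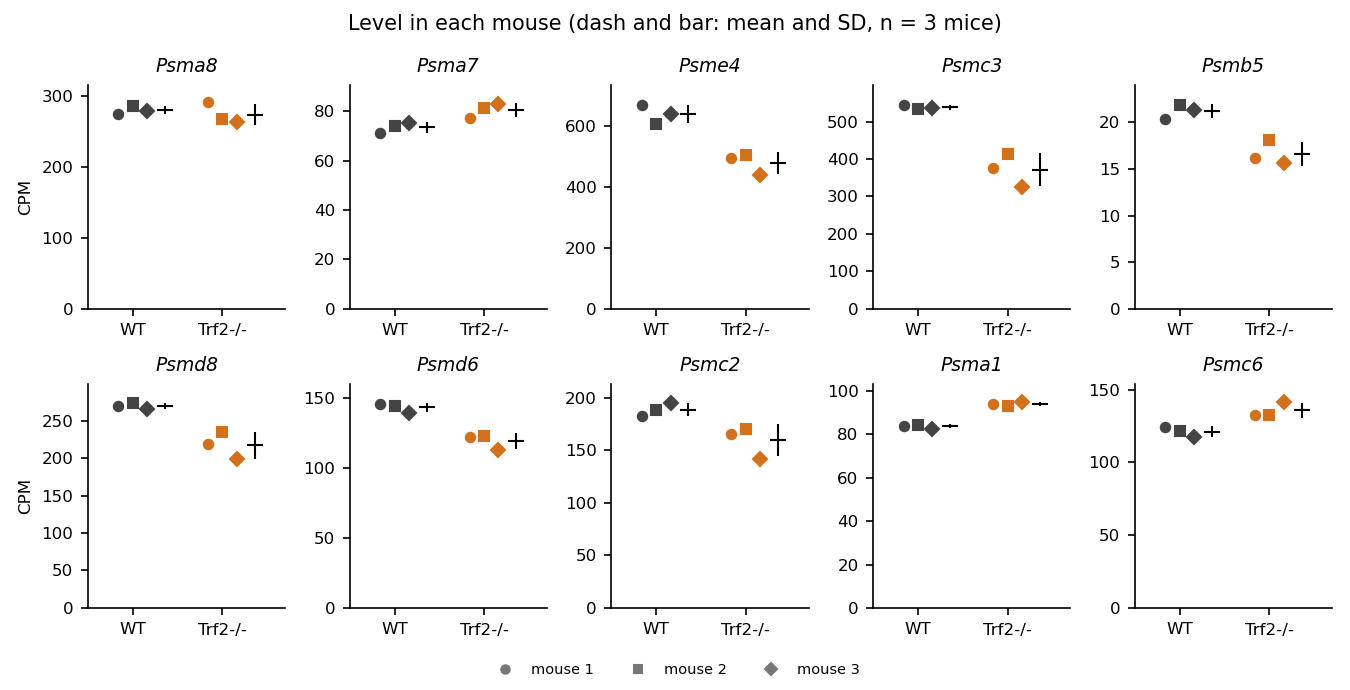
Level in CPM (vertical axes, each starting at 0) of 10 members in each of the 3 WT (grey) and 3 Trf2-/- (orange) mice, with a symbol for each mouse and a dash and bar for mean and SD. Psme4, Psmc3, Psmb5, Psmd8, Psmd6 and Psmc2 were lower in every mutant than in every WT mouse, Psma7, Psma1 and Psmc6 were higher, and Psma8 overlapped.

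Psmf1, an inhibitor of the core, was lower in the mutants, with 57.5, 57.3 and 56.8 CPM in WT and 49.7, 49.0 and 50.7 CPM in Trf2-/- mice (-0.20, SE 0.05, edgeR adjusted p = 0.0147). The 7 assembly factors were little changed. Psmg2, a chaperone of the alpha ring, had 40.6, 40.1 and 41.6 CPM in WT and 36.9, 37.0 and 32.6 CPM in mutants (-0.20, SE 0.07, edgeR adjusted p = 0.0482), and this call was lost in every alternative fit, with adjusted p-values from 0.0536 to 0.221. The other core chaperones Psmg1, Psmg3 and Psmg4 and the chaperones of the 19S base Psmd5, Psmd9 and Psmd10 were not called and ranged from -0.16 (Psmg4) to 0.15 (Psmd5). Psmc3ip, the recombination cofactor, was down-regulated (-0.21, edgeR adjusted p = 0.0249), and it shares 385 exon bases, 21.2% of its exons in GENCODE vM1, with Mlx on the opposite strand. Without this gene, the inhibitor and the assembly factors, 10 of the 36 tested subunits and activators were lower and 2 were higher. These are 27.8% and 5.56%, beside 20.2% and 11.2% of all genes tested. With library size alone the balance turned to 5 lower and 6 higher. The calls of Psmf1 and Psmc3ip were also lost there (edgeR adjusted p = 0.127 and 0.131).

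To compare levels between genes, CPM was divided by the gene length in kb that the authors list. In WT testes Psmc3 was the most abundant member per length at 206 ± 2.19 CPM per kb (mean ± SD, n = 3), followed by Psmd8 at 178 ± 2.73, Psma8 at 164 ± 3.19 and Psmd2 at 155 ± 0.594. The fifth was Psmb4 at 139 ± 3.33 CPM per kb, and then Psmb1 and Psmb7, at 124 ± 2.69 and 123 ± 2.26, did not differ beyond their spread. In Trf2-/- testes the order at the top changed. Psma8 led at 160 ± 8.87 CPM per kb, ahead of Psmd2 at 147 ± 5.77, Psmd8 at 144 ± 11.9 and Psmc3 at 142 ± 16.9. Psma8 was above Psmd2 and Psmd8 in each mutant, but below Psmc3 in Trf2-/- mouse 2. The order of these 4 was not tested. Psme4 had 76.2 ± 3.69 CPM per kb in WT and 57.1 ± 4.21 in mutants, more than the caps Psme1, Psme2 and Psme3 (18.2 to 29.6 CPM per kb in WT). The lowest beta subunit tested was Psmb5 (23.0 ± 0.815 CPM per kb in WT), although it sits in the core in the same number as the others. Assembly factors had from 6.62 (Psmd10) to 40.6 CPM per kb (Psmg1) in WT. For some members the listed length is shorter than their exons in GENCODE vM1, as for Psmd3 with 2220 against 4967 bases, so an order per length depends on the length used.

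**Figure D3:**
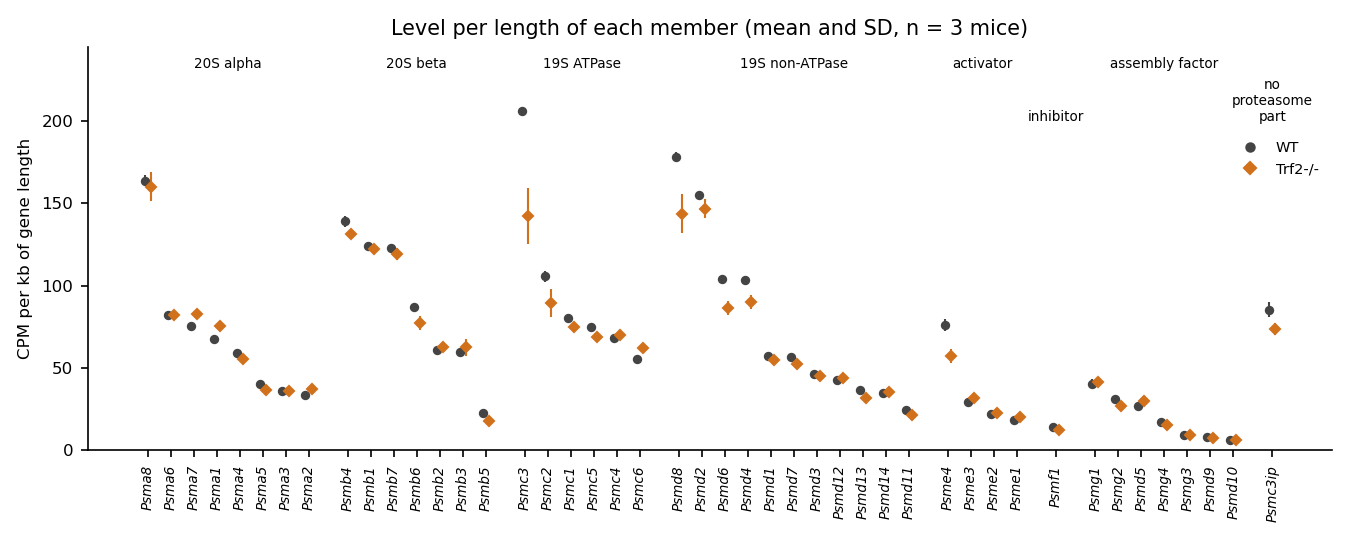
Level per length (vertical axis, CPM per kb of gene length) of each tested member in WT (grey circles) and Trf2-/- (orange diamonds), as mean and SD of 3 mice, grouped by role. Psmc3 and Psmd8 fell from the top of the order in WT to the level of Psmd2 in Trf2-/-, and Psma8 stayed near 160 CPM per kb.

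Sequence upstream of the start site was taken from RefSeq (build GRCm38.p6), which matched 39 of the 47 members with 42 promoters. Shown are the 250 bases before the start site, 5′ to 3′ on the strand of the gene, of the down-regulated Psme4, Psmb5 and Psmd8 and of the up-regulated Psma1 and Psmc6. These are the called members with the largest changes that have a sequence, and capitals mark matches to the motifs named after them. The windows are chr11:30771525-30771774 (plus strand) for Psme4, chr14:54617996-54618245 (minus strand) for Psmb5, chr7:29180674-29180923 (minus strand) for Psmd8, chr7:114276117-114276366 (minus strand) for Psma1 and chr14:45329574-45329823 (plus strand) for Psmc6.
Psme4: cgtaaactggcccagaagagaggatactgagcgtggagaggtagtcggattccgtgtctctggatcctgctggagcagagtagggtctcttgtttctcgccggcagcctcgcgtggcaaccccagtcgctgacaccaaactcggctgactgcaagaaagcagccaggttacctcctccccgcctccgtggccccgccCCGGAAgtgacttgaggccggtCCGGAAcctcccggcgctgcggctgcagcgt
Psmb5: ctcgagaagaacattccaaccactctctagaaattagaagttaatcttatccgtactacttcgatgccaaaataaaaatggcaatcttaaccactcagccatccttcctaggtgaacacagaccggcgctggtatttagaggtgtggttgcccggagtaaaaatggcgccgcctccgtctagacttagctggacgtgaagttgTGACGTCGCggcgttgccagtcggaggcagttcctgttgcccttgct
Psmd8: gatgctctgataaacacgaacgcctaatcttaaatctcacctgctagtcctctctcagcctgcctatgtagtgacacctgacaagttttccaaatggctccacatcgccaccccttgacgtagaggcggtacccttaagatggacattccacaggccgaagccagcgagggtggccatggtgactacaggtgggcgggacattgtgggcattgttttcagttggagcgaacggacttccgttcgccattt
Psma1: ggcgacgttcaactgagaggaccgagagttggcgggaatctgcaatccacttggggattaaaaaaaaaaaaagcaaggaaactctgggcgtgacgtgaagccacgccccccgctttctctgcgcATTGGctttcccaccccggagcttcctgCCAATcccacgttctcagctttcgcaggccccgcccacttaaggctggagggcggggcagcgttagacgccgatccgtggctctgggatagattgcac
Psmc6: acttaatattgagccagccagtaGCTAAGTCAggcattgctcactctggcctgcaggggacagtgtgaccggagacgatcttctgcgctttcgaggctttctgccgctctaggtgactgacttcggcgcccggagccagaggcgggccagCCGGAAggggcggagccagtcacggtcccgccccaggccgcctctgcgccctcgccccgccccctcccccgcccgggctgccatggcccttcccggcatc

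The motifs were searched on both strands as exact letters in these 250 bases. They were the CCAAT box (CCAAT), bound by NF-Y, the core of the antioxidant response element (TGACNNNGC), through which Nfe2l1 and Nfe2l2 act on proteasome genes, and the cyclic AMP response element (TGACGTCA), the site of CREM in spermatids. The ETS core (CCGGAA) was added after the sequences had been seen. TGACNNNGC and TGACGTCA begin with the same letters, but their matches cannot overlap, and the other motifs can overlap by at most a few letters. Psma1 holds ATTGG, the CCAAT box read from the other strand, beginning 126 bases before the start site, and CCAAT beginning at 98 bases. Psmb5 holds TGACGTCGC beginning 47 bases before its start site, and Psmc6 holds GCTAAGTCA at 227 bases. Psme4 holds CCGGAA at 53 and at 31 bases and Psmc6 at 100 bases. Psmd8 holds none of the 4.

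Over all promoters of the members, the CCAAT box was found in 14 of 42 (33.3%) and the antioxidant response core in 5 (11.9%), close to the 33.8% and 10.2% of the 32851 promoters in the table. TGACGTCA was found in none, against 1.55% of all promoters. CCGGAA was found in 19 members' promoters (45.2%), against 12.0% of all promoters and 19.3% of those of genes tested here. It was in 9 of 12 promoters of down-regulated members, 1 of 2 of up-regulated members and 9 of 26 of members not called. The 12 promoters belong to 11 genes, with Psmc2 counted more than once and Psmc3ip included. CCGGAA was chosen after sequences counted here had been seen, so its shares cannot be read as evidence about the calls. These shares are a description of the letters, with no test.

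The genes that act around the proteasome were called about as often as other genes. Of 46 tested genes of the list, which holds ubiquitin genes, activating enzymes, shuttle factors, p97 (Vcp) with its cofactors, proteasome-bound enzymes and transcription factors of proteasome genes, 7 were down-regulated and 7 up-regulated, 15.2% each, beside 20.2% and 11.2% of all genes tested. Their median log2 fold change was 0.0015. The list also holds Adrm1 and Shfm1, the 19S subunits without a Psm name. The largest decrease among these 46 was that of Ddi1, a shuttle factor of testis, one of the proteins that carry ubiquitinated substrates to the 19S particle. It had 78, 63 and 49 counts in WT and 7, 12 and 0 counts in Trf2-/- mice (log2 fold change -3.08, SE 0.46, edgeR adjusted p = 0.00155). Its value of 0 was in mutant mouse 3, the library with the fewest counts.

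Ngly1, the deglycosylase that activates Nfe2l1, had 129, 131 and 135 CPM in WT and 87.7, 96.5 and 72.9 CPM in mutants (-0.62, SE 0.09, edgeR adjusted p = 0.00132). Nploc4, a cofactor of p97, had 282, 223 and 221 CPM in WT and 172, 182 and 175 CPM in mutants (-0.45, SE 0.09, edgeR adjusted p = 0.00545). Akirin2, which brings proteasomes into the nucleus, had 96.7, 91.4 and 90.4 CPM in WT and 73.2, 70.5 and 67.7 CPM in mutants (-0.40, SE 0.05, edgeR adjusted p = 0.00102). Uchl3, a ubiquitin hydrolase, had 90.1, 89.3 and 87.2 CPM in WT and 68.3, 73.7 and 62.1 CPM in mutants (-0.38, SE 0.06, edgeR adjusted p = 0.00261). None of the 4 genes overlapped between genotypes. The other down-regulated genes were the shuttle factor Rad23b (-0.36) and the ubiquitin gene Ubb (-0.28), each past the threshold in edgeR's test. The up-regulated genes besides Psmb8 were Ubqln2 (0.28), AI314180 (0.27), which encodes the proteasome scaffold Ecm29, Nfe2l2 (0.25), Nfe2l1 (0.19), Uba1 (0.18) and Zfand5 (0.15). The summed level of the 6 transcription factors of proteasome genes was 282 to 289 CPM in WT and 314 to 335 CPM in mutants. With library size alone 15 genes of the whole list were up-regulated and 7 down-regulated. In that fit 6958 of all 16924 genes tested were called, 2691 of them lower.

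The inducible core subunits are incorporated in immune cells and after interferon. Psmb8 had 1.39, 1.68 and 1.58 CPM in WT and 5.27, 4.67 and 2.27 CPM in Trf2-/- mice (log2 fold change 1.42, SE 0.29, edgeR adjusted p = 0.00658), from 40, 44 and 33 counts and 133, 109 and 36 counts. Psmb10 had 191, 209 and 149 counts in WT and 169, 193 and 139 counts in mutants and was not called (0.12, edgeR adjusted p = 0.542). Psmb9 was not analysed here. Of the 7 macrophage markers measured, 3 were up-regulated (6 with library size alone), and their sum was 143 to 167 CPM in WT and 323, 195 and 162 CPM in Trf2-/- mice 1 to 3, so that mouse 3 had the lowest mutant level of both. The part of immune cells in the level of Psmb8 was not tested.

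**Figure D4:**
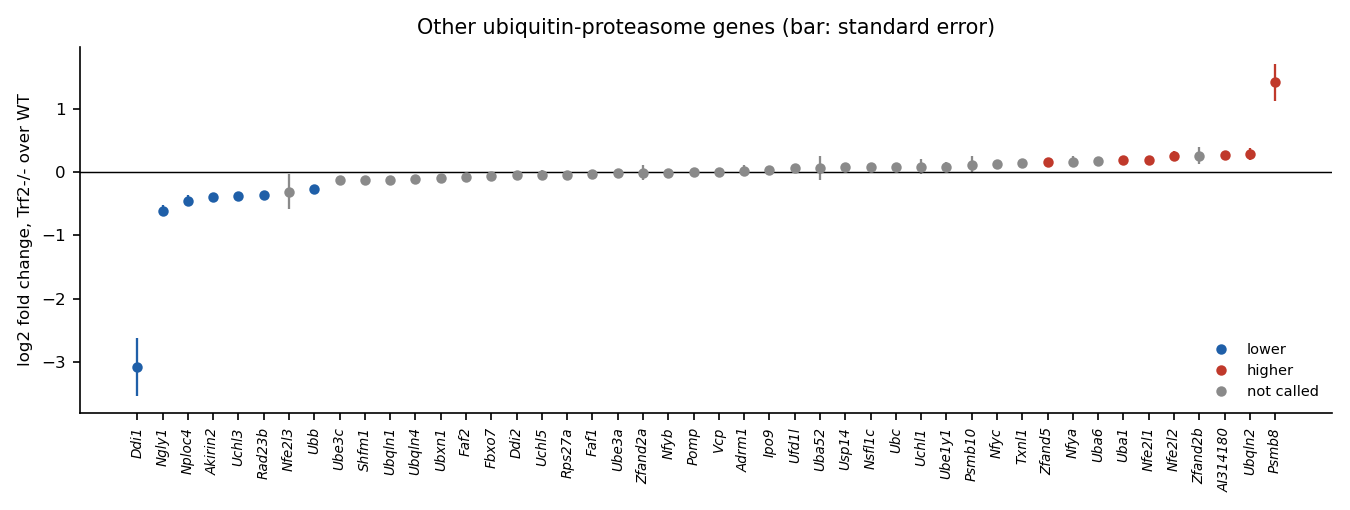
Log2 fold change (vertical axis, Trf2-/- over WT) of 46 other genes of the ubiquitin-proteasome pathway, in order of size, with bars for the standard error. Ddi1 stands at -3.08, Psmb8 at 1.42, and the other genes between -0.62 and 0.28.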

How the data were processed

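RNA-seq was performed by the authors on total RNA from testes of 3 WT and 3 Trf2-/- mice, with stranded libraries depleted of ribosomal RNA and single-end reads of 50 bases. Per the labels, the submitters' processing notes name CASAVA 1.8.2, TopHat2 2.0.10, Bowtie2 2.1.0, HTSeq 0.5.4p3, DESeq2 1.0.19 and the build mm9 (NCBIM37). The strand setting and the annotation release are not given in the sources used here, so genes overlapping on opposite strands may share reads. The authors deposited raw read counts for 26743 genes, and 12 further columns of normalized values per mouse were not used. Gene lengths were taken from the same table. Starts and ends of all 47 members were identical in GENCODE vM1, which was used for exon overlaps.

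Genes were filtered with filterByExpr, scaled with TMM and tested with glmQLFit and glmQLFTest of edgeR 4.0.16 (R 4.3.3), after a check on simulated data. Calls required an adjusted p under 0.05. The biological coefficient of variation was 0.0838. Replicates are separate mice per the study's design, and no pair of libraries was alike (chi-square per degree of freedom at least 3.32). The members and lists were chosen with earlier results of these data known. Named were Psma8, Psma7, Psme4, all called members, with values in each mouse for the 6 lowest and the 6 highest log2 fold changes among them, members not tested, the 6 called pathway genes with the largest change, the inducible subunits and Tbpl1. Alternatives were DESeq2's size factors, library size alone, the test of DESeq2 1.42.0, no filter beyond 1 count, at least 10 counts in every mouse, a replicate block, each mouse left out, an adjusted p of 0.01, and subunits and activators alone. Some genes of the pathway list are not reported here.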

Additional observations from a re-analysis of the deposited data

How the results depend on the processing

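Members called lower (13) and higher (2) numbered 5 and 7 with library size alone, where the median log2 fold change of the members was 0.0351, and 5 and 0 at an adjusted p of 0.01. DESeq2 and the replicate block each gave 12 lower and 1 higher. With each mouse left out in turn, 6 to 12 were lower and 0 to 2 higher, with 7 lower without WT mouse 1, 6 without WT mouse 2 and 7 without Trf2-/- mouse 1. With library size alone the calls of Psmb6, Psmc2, Psmc3ip, Psmd4, Psmd11, Psmd13, Psmf1 and Psmg2 were lost. Psmc3, Psme4, Psmd8 and Psmd6 were lower in every alternative run, and Psmg2 was lost in every refit. Psmb5 was lost without WT mouse 2 (edgeR adjusted p = 0.0598). With a mouse left out the largest edgeR adjusted p was 0.0887 for Psmc2, 0.0825 for Psmb6 and 0.0968 for Psmd11 (each lost without any WT mouse or Trf2-/- mouse 1, and Psmd11 also without mutant mouse 2), 0.0695 for Psma1 (without any WT mouse or Trf2-/- mouse 1), 0.112 for Psmc6 (kept only without mutant mouse 3), 0.0571 for Psmf1 (without WT mouse 1 or 2), 0.0954 for Psmc3ip (without WT mouse 1 or 2 or Trf2-/- mouse 1) and 0.0546 for Psmd4 (without Trf2-/- mouse 1). Other pathway genes called higher (7) numbered 15 with library size alone, 2 at an adjusted p of 0.01 and 2 to 6 with a mouse left out, of which 3 without WT mouse 1, 2 without WT mouse 2 and 3 without Trf2-/- mouse 1. Psma8 was not called in any alternative, and its log2 fold change of -0.03 became 0.0635 with library size alone and ranged from -0.0923 to 0.00405 with a mouse left out, turning positive without Trf2-/- mouse 3. The TMM factors were 0.962 to 0.974 in WT and 1.03 to 1.04 in Trf2-/- mice. Leaving them out therefore raises the log2 fold changes in general, and the median of all genes tested went from 0.04 to 0.13. The cause of the shifts with a mouse left out was not tested. No member reached 2-fold in any alternative run. For single members the replicate block lost Psmc6 and Psmg2. Mice of the same number did not deviate together (correlations of -0.0973, -0.0313 and -0.102). With 3 mice per genotype this cannot settle whether the numbers pair them, and the main fit used no pairing. Depth limits the lowest members: 3 counts correspond to 0.104 to 0.189 CPM, which covers counting error only.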
